A study of Mus musculus with 23 samples.

Results

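A group of 10 genes of extracellular proteolysis was followed through 23 mouse tumour libraries: the matrix metalloproteases Mmp2, Mmp3, Mmp9, Mmp10, Mmp13 and Mmp14, their tissue inhibitors Timp1 and Timp3, the urokinase plasminogen activator Plau and the urokinase receptor Plaur. They were chosen by name, as the rows of the deposited count table whose Ensembl identifier carries each symbol. All 10 were found among the 55401 genes of the table, and all 10 were among the 24440 genes that passed the filter on low counts.

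The tumours grew in the flanks of male C57/BL6 mice aged 8 to 10 weeks, from TC2Ras cells. TC2Ras is a single line, made from TRAMP-C2 mouse prostate adenocarcinoma cells with a lentivirus that carries activated H-rasG12V, so every group holds this allele. The tibialis anterior muscles, not the tumour, received 10 µg of plasmid each by sonoporation, which is ultrasound with microbubbles. In IL27v mice (tumours called hot) the plasmid was pTSTA-IL27pepL, for the cytokine IL-27 with the short pepL peptide, and in EV mice (tumours called cold) it was the empty pTSTA-ctrl. Tumour pieces from both kinds of mice were then kept ex vivo with cabozantinib (an inhibitor of MET, VEGF receptors and other kinases), docetaxel (a taxane that stabilises microtubules), anti-PD-L1 (an antibody to a checkpoint ligand), IL-27, cabozantinib plus IL-27, or media alone. The 12 groups have 2 libraries each, apart from 1 library for IL27v tumours kept with IL-27. The stated purpose was to look for T-cell components in hot and cold tumours, and no label says that replicates came from separate animals, so p-values rest on a spread that may be technical.

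Matrix metalloproteases are zinc enzymes that cut collagens, proteoglycans and other parts of the extracellular matrix. Most are secreted as inactive forms and are opened by other proteases, and the TIMPs bind and block the active enzymes. Urokinase, held at the cell surface by its receptor, turns plasminogen into plasmin, which cuts fibrin and matrix proteins and can itself open several metalloproteases. In tumours these genes are transcribed by fibroblasts and macrophages as well as by the cancer cells. Fewer cells of a type and less RNA per cell cannot be told apart in bulk libraries.

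Mmp13, Mmp3 and Mmp10 lie on the same strand within 238 kb of mouse chromosome 9, in a run of 9 metalloprotease genes. A promoter window was found for 7 of the 10 members in the RefSeq set for build GRCm38.p6, which covers 250 bases before and 50 after each start site; the windows of Mmp2, Mmp9 and Plau were not used here. The motif TGANTCA, which AP-1 factors (dimers of Fos and Jun proteins) bind, was found in 4 of the 7 windows, those of Mmp3, Mmp10, Mmp13 and Plaur. It occurs in 7.81% of all 32851 windows. The 150 bases before the start site are shown for these 4 members because the 3 neighbours on chromosome 9 share the motif and yet differ in how their levels vary, and because Plaur is the other member that passed a test. All are on the plus strand, at chr9:7445672-7445821 for Mmp3, chr9:7502192-7502341 for Mmp10, chr9:7272364-7272513 for Mmp13 and chr7:24462333-24462482 for Plaur, and capitals mark the AP-1 match.
Mmp3: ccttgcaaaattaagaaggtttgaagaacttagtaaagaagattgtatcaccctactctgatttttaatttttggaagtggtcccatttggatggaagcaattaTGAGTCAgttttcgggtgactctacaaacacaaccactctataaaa
Mmp10: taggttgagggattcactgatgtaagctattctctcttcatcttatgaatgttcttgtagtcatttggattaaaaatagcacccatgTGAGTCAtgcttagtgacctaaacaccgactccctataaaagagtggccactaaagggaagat
Mmp13: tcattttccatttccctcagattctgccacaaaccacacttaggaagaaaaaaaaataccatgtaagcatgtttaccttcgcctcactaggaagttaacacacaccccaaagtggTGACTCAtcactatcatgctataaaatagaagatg
Plaur: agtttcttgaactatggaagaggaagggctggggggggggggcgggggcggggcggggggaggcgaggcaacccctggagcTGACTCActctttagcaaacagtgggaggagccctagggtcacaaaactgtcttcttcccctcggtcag
The first base of the AP-1 match lies at -46 in Mmp3, -63 in Mmp10, -35 in Mmp13 and -69 in Plaur, counted from the start site. The core promoter element TATAAA follows the match at -7, -29 and -16 in Mmp3, Mmp10 and Mmp13. This element occurs in 13.6% of all windows. The motif AGGAAG, bound by ETS factors, was found in the windows of Mmp3, Mmp13 and Plaur and not in that of Mmp10, and occurs in 35.4% of all windows. All 3 motifs were searched on both strands, and none overlaps another in these 4 windows. A match is a description of the sequence and not evidence of binding.

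Library totals ran from 47641781 to 83088346 estimated counts, and 1 CPM (a TMM-scaled count relative to the library total) stood for 36.3 to 86.5 counts. The summed level of 5 epithelial markers of adenocarcinoma was 3.84 to 139 CPM (median 26.5) in IL27v and 9.74 to 141 CPM (median 25.2) in EV libraries. Of these, Krt8 had a median of 18.4 CPM in IL27v and 20.5 CPM in EV libraries, whereas the medians of Epcam, Krt18 and Cdh1 lay under 1 CPM in both; Epcam reached 18.7 CPM and Cdh1 92.2 CPM in IL27v libraries, and 0.444 and 1.74 CPM in EV libraries. The libraries fell into 3 sets by skeletal muscle and neutrophil transcripts. Set C (8 IL27v libraries) held at least 100 CPM over 13 skeletal muscle genes and no count of the neutrophil gene Ngp, set B (both IL27v media libraries, EV anti-PD-L1 2 and both EV cabozantinib plus IL-27 libraries) held muscle genes and at least 5 CPM of Ngp, and set A (the other 9 EV libraries) held at most 18.4 CPM of muscle genes and hardly any Ngp. IL27v docetaxel 1, with 28.7 CPM of muscle genes and 27.2% of its counts in a single gene, was put in no set. Only set B holds both vectors, so vector and set cannot be told apart over most of the libraries, and results are therefore also given within sets or with the set as a term.

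Levels were compared between members per kilobase of exon. Timp1 averaged 99.1 ± 47.6 CPM per kb in IL27v libraries (SD, n = 11) and 82.0 ± 35.8 in EV libraries (n = 12), and Mmp14 51.4 ± 10.9 in IL27v and 63.6 ± 15.1 in EV libraries. The place of Mmp3 depended on the vector: it ranked 1 of 10 in IL27v libraries at 126 ± 156 CPM per kb and 9 of 10 in EV libraries at 7.15 ± 7.97, below Timp3 at 8.54 ± 2.87. Plau followed Mmp14 under both vectors, at 49.6 ± 20.7 in IL27v and 37.1 ± 16.4 in EV libraries. Over all 23 libraries, Plaur averaged 32.4 ± 19.1, Mmp13 31.6 ± 35.5, Mmp10 19.8 ± 7.77, Mmp2 18.9 ± 21.7 and Timp3 8.05 ± 2.76 CPM per kb. Mmp9, the gelatinase typical of neutrophils and macrophages, was lowest under both vectors, at 4.04 ± 3.69 in IL27v and 3.15 ± 1.49 in EV libraries.

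The members varied very unequally. Mmp3 (stromelysin 1) differed 451-fold between its lowest and highest library, Mmp9 27.4-fold, Mmp13 (collagenase 3) 26-fold and Mmp2 (gelatinase A) 18.7-fold, whereas Mmp14, the membrane-anchored metalloprotease that activates pro-Mmp2, differed 2.66-fold. Part of that spread lay between replicates of a group. Mmp3 differed by more than 2-fold in 8 of 11 replicate pairs, Mmp9, Mmp13 and Timp1 in 5 each, Plaur in 2, Plau in 1 and Mmp14 in none of the 11. The widest pair was IL27v media, whose replicates had 18.6 and 971 CPM of Mmp3, and 18.9 and 353 CPM of Mmp2. The replicate low in both had 2080 CPM over 10 fibroblast markers and the other 8540 CPM, the highest of all libraries, and its part in the spread was not tested.

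**Figure D1:**
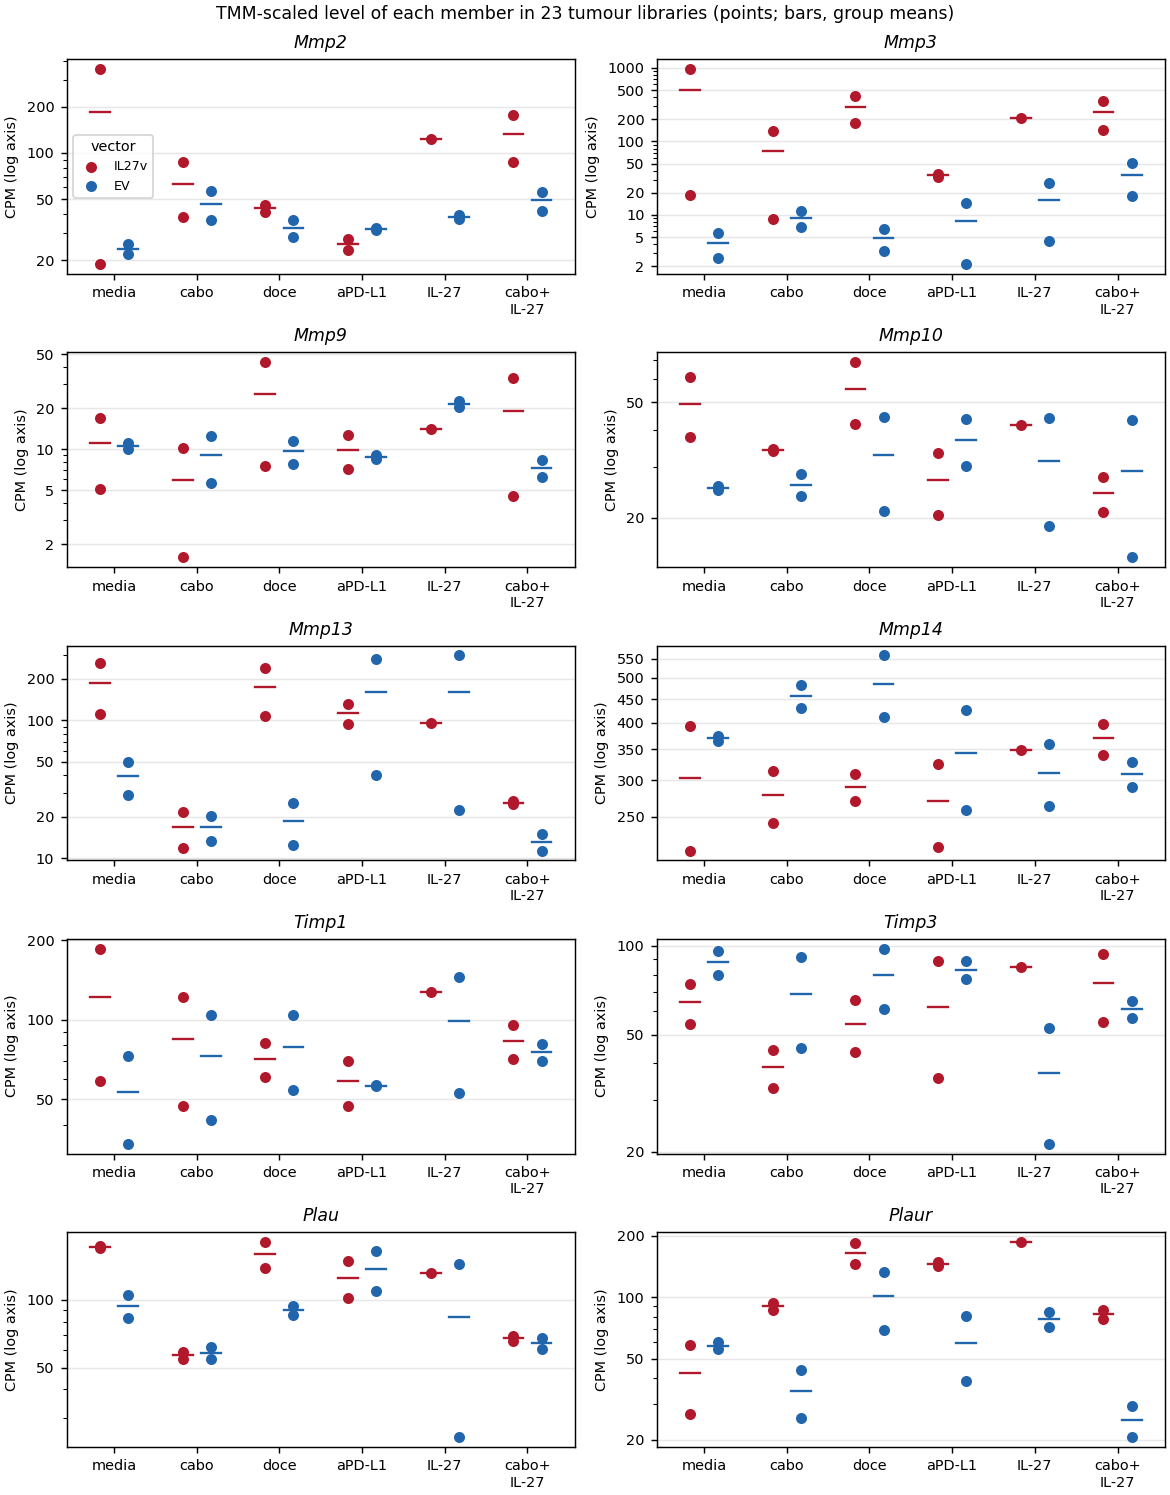
Level of each of the 10 genes in every library, in TMM-scaled CPM on a log axis, by ex vivo condition, with IL27v libraries in red left of EV libraries in blue; points are libraries and bars are group means. Mmp3 reached 971 CPM in 1 IL27v media library and never passed 51.6 CPM in EV libraries, and Mmp13 and Plau were low in all libraries with cabozantinib.

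Between IL27v and EV tumours, Mmp3 and Plaur rose, and no member fell. Mmp3, a broad-range stromelysin that also opens other pro-metalloproteases, stood at 8.94 to 971 CPM in IL27v libraries (median 142, n = 11), against 2.15 to 51.6 CPM in EV libraries (median 6.66, n = 12). Of the 11 IL27v libraries, 7 lay above the highest EV library and all 11 above the EV median. The log2 fold change was 4.07 ± 0.60 (SE), with an adjusted p of 0.0021 (edgeR quasi-likelihood test, Benjamini-Hochberg over all genes). Plaur, the receptor that concentrates urokinase at the cell surface, stood at 26.6 to 187 CPM in IL27v libraries (median 93.7), against 20.6 to 133 CPM in EV libraries (median 57.8). These ranges overlapped over most of their width. The log2 fold change of Plaur was 0.99 ± 0.18, with an adjusted p of 0.0056 in edgeR. Over all genes, 2.95% were called at an adjusted p under 0.05 and 2.28% were called higher in IL27v, so 2 of 10 members stand against that background.

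The difference in Mmp3 was seen in each ex vivo condition, with uneven size. In media, IL27v libraries had 18.6 and 971 CPM and EV libraries 5.62 and 2.61 CPM. With docetaxel, IL27v libraries had 177 and 409 CPM and EV libraries 3.20 and 6.38 CPM. With anti-PD-L1, IL27v libraries had 32.6 and 36.5 CPM and EV libraries 2.15 and 14.6 CPM. In these 3 conditions the vectors did not overlap. With ex vivo IL-27, the IL27v library had 207 CPM and the EV libraries 4.43 and 27.6 CPM. With cabozantinib plus IL-27, IL27v libraries had 353 and 142 CPM and EV libraries 18.1 and 51.6 CPM. With cabozantinib, IL27v libraries had 8.94 and 137 CPM and EV libraries 11.4 and 6.93 CPM. The vectors overlapped only with cabozantinib, so the ranges were apart in 5 of 6 conditions, and the fitted difference was positive in all 6, at log2 2.05 to 6.91. The highest of these, in media, was 2.18 without IL27v media 2, and the cabozantinib value of 2.99 was -0.04 without IL27v cabozantinib 2. Ranges of the vectors were apart, in either direction, in 5 of 6 conditions for Plaur and 4 for Mmp2. The number was 3 each for Mmp13, Mmp14 and Timp3, 2 each for Mmp10 and Plau, 1 for Mmp9 and 0 for Timp1. Here and below, the share of all genes apart between groups of 1 or 2 libraries was not counted. Such separation is a description only.

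Plaur was apart between vectors in the 5 conditions other than media. In media, IL27v libraries had 26.6 and 58.0 CPM and EV libraries 55.4 and 60.2 CPM. With cabozantinib, IL27v libraries had 86.7 and 93.7 CPM and EV libraries 44.1 and 25.4 CPM. With cabozantinib plus IL-27, IL27v libraries had 86.1 and 78.5 CPM and EV libraries 29.1 and 20.6 CPM. The media libraries therefore overlapped, and those with cabozantinib did not. With docetaxel, IL27v libraries had 185 and 145 CPM and EV libraries 68.9 and 133 CPM. With anti-PD-L1, IL27v libraries had 143 and 149 CPM and EV libraries 81.1 and 38.7 CPM. With ex vivo IL-27, the IL27v library had 187 CPM and the EV libraries 71.3 and 84.2 CPM. The fitted difference was positive in 5 of 6 conditions and was -0.45 on the log2 scale in media.

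The order of Plaur also followed the sets of libraries. Set C libraries had 78.5 to 187 CPM (median 118, n = 8), set B libraries 20.6 to 58.0 CPM (median 29.1, n = 5) and set A libraries 25.4 to 133 CPM (median 68.9, n = 9). Within set B, Plaur was 26.6 and 58.0 CPM in IL27v media libraries, against 38.7, 29.1 and 20.6 CPM in the EV libraries, and the vectors overlapped. With the set as a term in an additive model of 22 libraries, the vector difference in Plaur was 0.28 ± 0.47 on the log2 scale (adjusted p of 1 in edgeR). For Mmp3 it was 4.66 ± 1.78 (adjusted p of 1 in edgeR), and no gene of 24046 was called in that model. Only set B holds both vectors, so it alone separates vector from set in that model. Its IL27v libraries were kept in media and its EV libraries with anti-PD-L1 or cabozantinib plus IL-27. They share no ex vivo condition, so the vector estimate also rests on exposure differences taken from the other sets. Within set B, Mmp3 was 18.6 and 971 CPM in IL27v media libraries, against 14.6, 18.1 and 51.6 CPM in EV libraries, so the vectors overlapped.

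Markers of muscle and skin differed between the vectors too. All 13 skeletal muscle genes and 7 of 10 keratinocyte genes rose in IL27v; the muscle sum was 28.7 to 974 CPM (median 826) in IL27v libraries and 1.27 to 563 CPM (median 3.40) in EV libraries. The keratinocyte sum was 1.99 to 4310 CPM (median 13.8) in IL27v libraries and 1.80 to 7.85 CPM (median 2.69) in EV libraries. None of 10 fibroblast, 10 macrophage or 10 neutrophil markers was called in edgeR, and 1, 1 and 4 of them had an unadjusted p under 0.05. The fibroblast sum was 1460 to 8540 CPM (median 3020) in IL27v libraries and 2600 to 5250 CPM (median 4430) in EV libraries, and the macrophage sum 172 to 563 CPM (median 231) in IL27v and 116 to 419 CPM (median 210) in EV libraries. The part of these tissues in the differences of Mmp3 and Plaur was not tested.

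**Figure D2:**
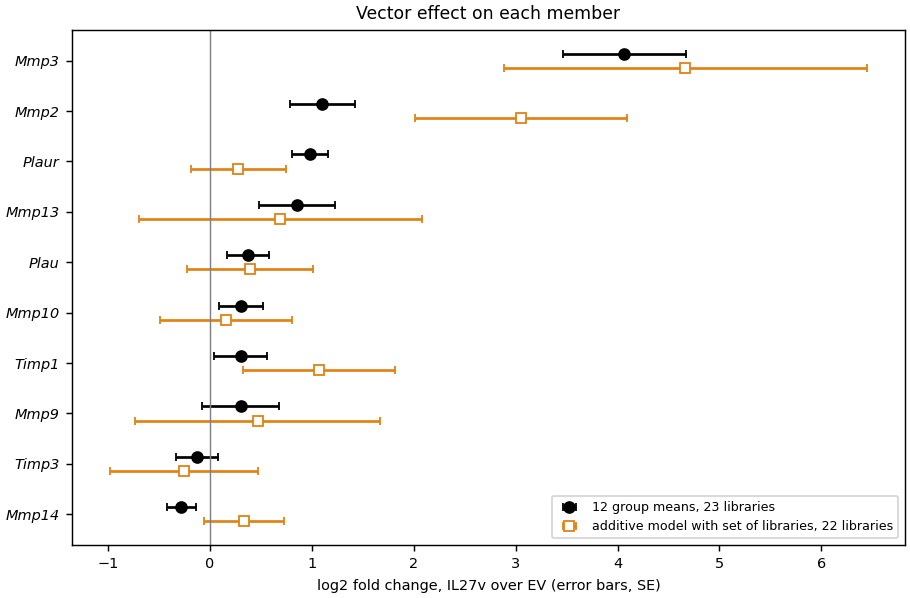
Log2 fold change of each gene in IL27v over EV with its SE, from the model of 12 group means (black circles, 23 libraries) and from the additive model with the set of libraries as a term (open orange squares, 22 libraries). Mmp3 is 4.07 in the first and 4.66 in the second, with a wider error, and Plaur is 0.99 and 0.28. In the second model only set B separates vector from set, and its IL27v and EV libraries share no ex vivo condition. Both genes overlapped between the vectors in set B, and the model called no gene.

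The other 8 members did not pass the test between vectors. Mmp2, which digests denatured and basement membrane collagen, stood at 18.9 to 353 CPM in IL27v libraries (median 45.5), against 22 to 56.7 CPM in EV libraries (median 36.6). Its log2 fold change was 1.10 ± 0.31 with an adjusted p of 0.070 in edgeR, and DESeq2 called it, with an adjusted p of 0.012. Without IL27v media 2 it was 0.56, and without IL27v media 1 it was 1.20 and was called (adjusted p of 0.0019 in edgeR). The IL27v libraries held both the lowest and the highest value, so the groups overlapped. Mmp13, which cuts fibrillar collagen, had 0.86 ± 0.37 (adjusted p of 0.28 in edgeR), with 11.9 to 263 CPM in IL27v libraries and 11.4 to 297 CPM in EV libraries. Without EV IL-27 2, the library at 297 CPM, its log2 fold change was 1.33. Mmp14 had a log2 fold change of -0.28 ± 0.14 (adjusted p of 0.39 in edgeR), with 211 to 398 CPM in IL27v libraries and 259 to 560 CPM in EV libraries. Plau, Mmp10, Mmp9 and Timp1 had values of 0.30 to 0.37 and Timp3 had -0.12, none past the test. Plau had 0.67 without EV IL-27 2 and 0.21 without EV IL-27 1. Within single conditions no member was called between vectors in edgeR over 60 tests, of which 13 had an unadjusted p under 0.05, and DESeq2 called 5.

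With cabozantinib, Mmp13 and Plau had narrower ranges and lower medians than without it. Mmp13 stood at 11.4 to 25.9 CPM in the 8 libraries with cabozantinib, alone or with IL-27 (median 17.7), against 12.5 to 297 CPM in the 15 libraries without it (median 96.0). Of those 15, 12 lay above the highest library with cabozantinib. The exceptions were EV docetaxel 1 and 2 with 25.1 and 12.5 CPM and EV IL-27 1 with 22.3 CPM. Plau, the protease that makes plasmin, stood at 54.4 to 69.4 CPM with cabozantinib (median 61.2), against 24.6 to 181 CPM without it (median 131). Here 14 of 15 libraries without cabozantinib lay above the highest with it, the exception being EV IL-27 1 with 24.6 CPM.

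No member passed the edgeR test for cabozantinib against media, where 0.0% of all genes were called (0 of 24440, with 2570 at an unadjusted p under 0.05) and DESeq2 called 321 genes, among them 1 member. Mmp13 had 11.9 and 21.7 CPM in IL27v cabozantinib libraries against 111 and 263 CPM in IL27v media libraries. It had 13.4 and 20.3 CPM in EV cabozantinib libraries against 28.8 and 50.3 CPM in EV media libraries. Under both vectors the libraries were apart. The log2 fold change of Mmp13 was -2.36 ± 0.65 with an adjusted p of 0.35 in edgeR and 0.016 in DESeq2. Plau had 54.5 and 58.7 CPM in IL27v cabozantinib libraries against 169 and 174 CPM in IL27v media libraries, and 54.4 and 62.0 CPM in EV cabozantinib libraries against 105 and 82.7 CPM in EV media libraries. Again neither pair overlapped. The log2 fold change of Plau was -1.15 ± 0.35 with an adjusted p of 0.36 in edgeR. The IL27v cabozantinib libraries belong to set C and their media libraries to set B, whereas both EV groups lie in set A, where Mmp13 had -1.23 ± 0.90 and Plau -0.69 ± 0.66 (adjusted p of 1 each in edgeR). The cabozantinib libraries were the higher pair for Plaur in IL27v and the lower pair in EV, with 86.7 and 93.7 CPM in IL27v cabozantinib libraries against 26.6 and 58.0 CPM in IL27v media libraries, and 44.1 and 25.4 CPM in EV cabozantinib libraries against 55.4 and 60.2 CPM in EV media libraries. Its log2 fold change was 1.09 ± 0.42 in IL27v and -0.73 ± 0.42 in EV (adjusted p-values of 0.25 and 1 in edgeR). Their mean was 0.18 ± 0.29, and -0.60 ± 0.32 with the set as a term (adjusted p of 0.81 in edgeR). Mmp2 had -0.29 ± 0.52, but without IL27v media 2 it had 1.35.

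The combination gave values close to those of cabozantinib for Mmp13 and Plau. For cabozantinib plus IL-27 against media, Mmp13 had -2.23 ± 0.64 and Plau -0.95 ± 0.35 on the log2 scale. With an adjusted p of 0.88 each, neither was called in edgeR, where 2 members had an unadjusted p under 0.05 and 0.00409% of all genes, 1 gene, were called; DESeq2 called 69 genes and no member. Mmp13 had 25.9 and 24.6 CPM in IL27v libraries with the combination, against 111 and 263 CPM in IL27v media libraries, and 11.4 and 15.1 CPM in EV libraries, against 28.8 and 50.3 CPM in EV media libraries. These libraries were apart under both vectors, but neither comparison lies within a set: C against B in IL27v and B against A in EV. With the set as a term Mmp13 had -2.46 ± 1.1 and Plau -0.96 ± 0.49, neither called in edgeR. Other members had opposite signs in the cabozantinib and combination comparisons, none of them called in edgeR. Mmp3 had 1.04 ± 0.92 with the combination and -0.80 ± 0.92 with cabozantinib, both against media, and Mmp2, Mmp9 and Plaur also had opposite signs.

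A comparison of all libraries with cabozantinib against their partners without it, with or without IL-27 in both, was added after these values were seen. Mmp13 had a log2 fold change of -2.56 ± 0.47 (adjusted p of 0.25 in edgeR), and DESeq2 called it with an adjusted p of 0.00016. Plau had -0.91 ± 0.26 and Plaur -0.62 ± 0.22, with adjusted p-values of 0.85 and 1 in edgeR. No member was called in edgeR, against 0.00409% of all genes (1 gene), and 3 members had an unadjusted p under 0.05. Leaving out 1 library at a time gave -2.82 to -1.85 for Mmp13 and -1.15 to -0.47 for Plau. For Mmp13 the -1.85 was without EV IL-27 2, which had 297 CPM, against 22.3 CPM in EV IL-27 1. For Plau the -1.15 was without EV IL-27 1 and the -0.47 without EV IL-27 2. With the set as a term Mmp13 had -2.93 ± 0.72, Plau -0.91 ± 0.31 and Plaur -0.83 ± 0.24, and no gene was called.

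Set C allows a different comparison within 1 set and 1 vector, 4 libraries against 4. It holds no media library. The 4 without cabozantinib are IL27v docetaxel 2, IL27v anti-PD-L1 1 and 2, and IL27v IL-27 2. The IL27v media libraries, in set B, had 26.6 and 58.0 CPM of Plaur, below all 8 of these libraries. Mmp13 had 11.9 to 25.9 CPM with cabozantinib against 94.2 to 241 CPM without. Plau had 54.5 to 69.4 CPM with cabozantinib against 102 to 148 CPM without. Plaur had 78.5 to 93.7 CPM with cabozantinib against 143 to 187 CPM without. None of the 3 overlapped, and they were the 3 of 10 members whose libraries were apart. Of 13818 genes with a mean of at least 1 CPM in these 8 libraries, 3.77% were lower without overlap and 8.0% were apart in either direction. The log2 fold changes were -2.73 ± 0.25 for Mmp13, -1.08 ± 0.17 for Plau and -0.88 ± 0.13 for Plaur. The p-values of edgeR adjusted over 21512 genes were 0.17, 0.42 and 0.40, and no gene was called.

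**Figure D3:**
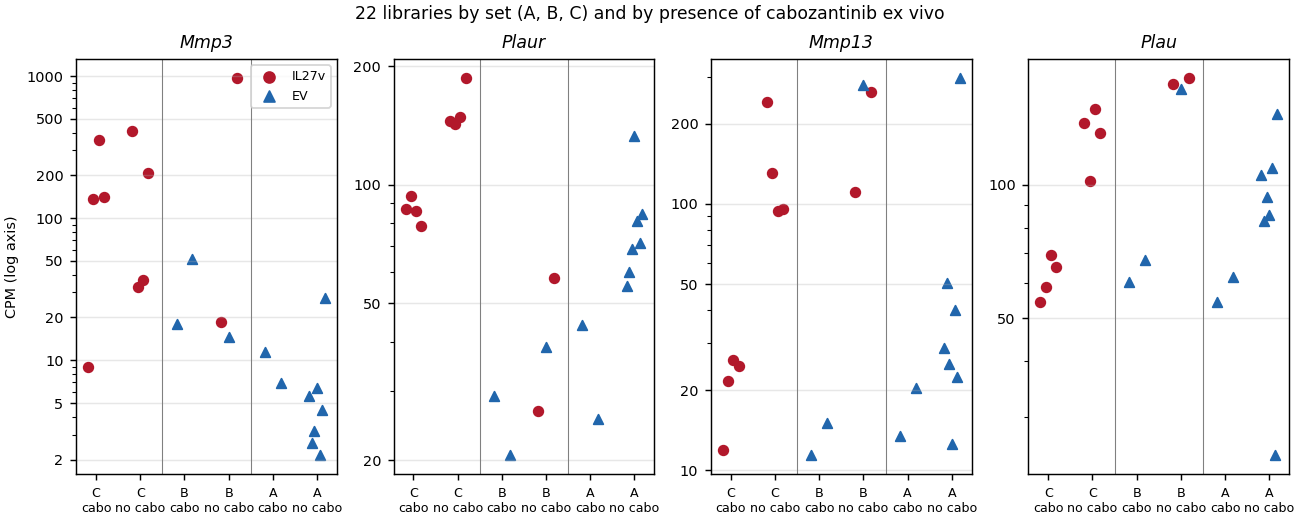
Level of Mmp3, Plaur, Mmp13 and Plau in the 22 libraries that belong to a set, in TMM-scaled CPM on a log axis; columns give the set (C, B, A) and whether cabozantinib was present, red circles are IL27v and blue triangles are EV libraries. Within set C, Plaur, Mmp13 and Plau with cabozantinib all lie below the libraries without it, and Mmp3 does not separate that way. The set C libraries without it were kept with docetaxel, anti-PD-L1 or IL-27, and none with media alone.

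The 3 genes most like Mmp13 over the 22 libraries, each centred on its set mean, were Msr1, a macrophage scavenger receptor (Pearson r of 0.942), Mmp12, the macrophage elastase next to Mmp13 on chromosome 9 (0.939), and Ppbp, a chemokine (0.879), out of 10809 genes compared. Mmp12, described here after its values were seen, stood at 56.9 to 177 CPM with cabozantinib (median 130), against 86.5 to 1930 CPM without it (median 368). Against the partners in media or IL-27 alone, its log2 fold change was -2.06 ± 0.44, with an adjusted p of 0.38 in edgeR. The summed level of 10 macrophage markers was 116 to 563 CPM with cabozantinib (median 223), against 145 to 419 CPM without it (median 256), and no macrophage marker was at 0 in all libraries of either group. The macrophage sums overlapped, and their part in the Mmp13 values was not tested. Serpinb2, an inhibitor of urokinase also picked after its values were seen, had -1.66 ± 0.39 against the partners in media or IL-27 alone (adjusted p of 0.54 in edgeR).

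With docetaxel, Plaur rose against media, and it was the only member called. IL27v docetaxel libraries had 185 and 145 CPM, against 26.6 and 58.0 CPM in IL27v media libraries. EV docetaxel libraries had 68.9 and 133 CPM, against 55.4 and 60.2 CPM in EV media libraries. The pairs did not overlap under either vector. The log2 fold change was 1.39 ± 0.30 with an adjusted p of 0.027 in edgeR. Over all genes 1.79% were called and 1.76% were called higher, and among members Plaur alone also had an unadjusted p under 0.05.

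The call depended on the libraries used. Within IL27v the log2 fold change of Plaur was 1.97 ± 0.43 with an adjusted p of 0.022 in edgeR, 1 member of 10 against 2.79% of all genes called. Those docetaxel and media libraries share no set. Within EV, where both groups lie in set A, it was 0.81 ± 0.42 with an adjusted p of 0.82 in edgeR. With the set as a term it was 0.56 ± 0.32 (adjusted p of 0.79 in edgeR). Leaving out 1 library at a time gave 1.09 to 1.72, and the call was kept in 3 of 8 such fits: it was lost without IL27v media 1, IL27v docetaxel 1, EV media 1, EV media 2 or EV docetaxel 2. The keratinocyte sum was 4250 and 4310 CPM in the IL27v docetaxel libraries and 759 CPM in IL27v anti-PD-L1 1. It was at most 19.7 CPM in every other library. The sum of 10 neutrophil markers was 233 and 257 CPM in the IL27v docetaxel libraries and at most 76.9 CPM in every other library. The part of either sum in the Plaur values was not tested.

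Docetaxel and cabozantinib libraries were also compared directly. Plaur had 185 and 145 CPM with docetaxel against 86.7 and 93.7 CPM with cabozantinib in IL27v libraries, and 68.9 and 133 CPM with docetaxel against 44.1 and 25.4 CPM with cabozantinib in EV libraries. The drugs were apart under both vectors. The log2 fold change was 1.21 ± 0.30, with an adjusted p of 0.31 in edgeR and 0.014 in DESeq2, and 1.16 ± 0.27 with the set as a term. Mmp13 had 1.77 ± 0.64 and Plau 1.06 ± 0.35, with adjusted p-values of 0.73 and 0.63 in edgeR. No member was called in edgeR, against 0.0205% of all genes (5 genes), and 3 members had an unadjusted p under 0.05; DESeq2 called 219 genes, among them Plaur.

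Anti-PD-L1 and ex vivo IL-27 gave no member call in edgeR, where 0.0% of all genes were called in each. For anti-PD-L1 against media, 2 members had an unadjusted p under 0.05, Plaur with 0.92 ± 0.29 (0.33 ± 0.34 with the set as a term, and 0.60 without EV anti-PD-L1 1) and Mmp2 with -1.22 ± 0.53, and DESeq2 called 113 genes but no member. The Mmp2 value rests on IL27v media 2, without which it was 0.43. For IL-27 against media, Plaur had 1.29 ± 0.32 with an adjusted p of 0.20 in edgeR, the 1 member at an unadjusted p under 0.05, and DESeq2 called 641 genes, among them Plaur. Plaur had 187 CPM in the IL27v library with IL-27, against 26.6 and 58.0 CPM in IL27v media libraries, and 71.3 and 84.2 CPM in EV libraries with IL-27, against 55.4 and 60.2 CPM in EV media libraries. The groups were apart under both vectors. With the set as a term the value was 0.51 ± 0.33 (adjusted p of 0.65 in edgeR). Without the IL27v library with IL-27 it was 0.47, without IL27v media 2 it was 1.62, and without EV IL-27 2 it was 1.22. The 2 EV libraries with IL-27 disagreed on Mmp13, with 22.3 and 297 CPM, and on Plau, with 24.6 and 144 CPM, so nothing could be read from their mean.

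**Figure D4:**
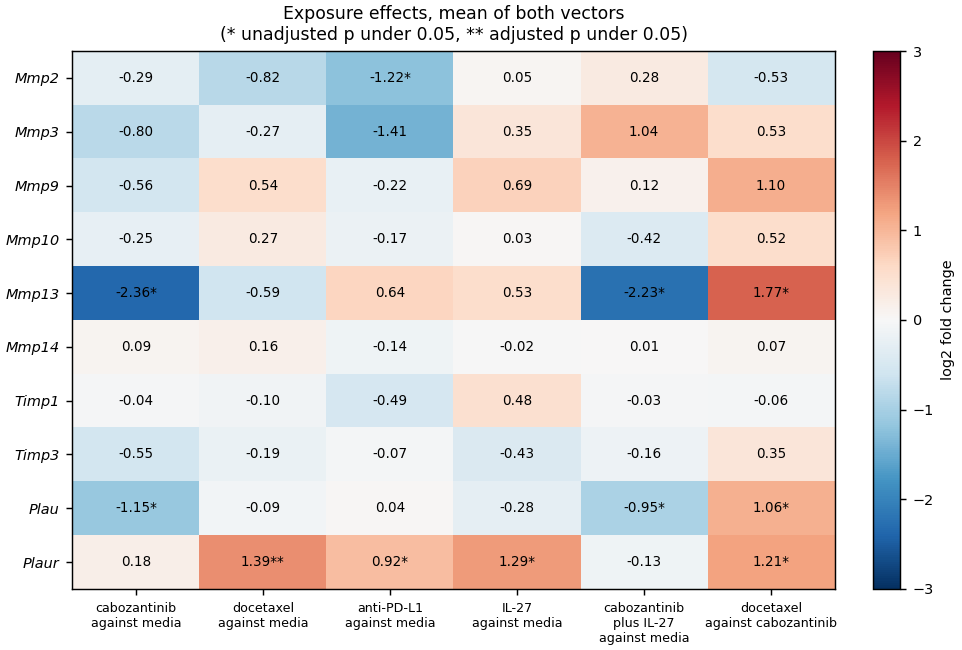
Log2 fold change of each gene for 6 comparisons between ex vivo conditions, as the mean over both vectors, on a colour scale from -3 (blue) to 3 (red); 1 asterisk marks an unadjusted p under 0.05 and 2 asterisks an adjusted p under 0.05 in edgeR. Only Plaur with docetaxel against media, at 1.39, has 2 asterisks, and Mmp13 is lowest in the 2 columns that set cabozantinib against media, at -2.36 and -2.23.

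Whether an exposure acted differently under the 2 vectors was tested as an interaction for 5 exposures and 10 members. None of the 50 tests was called in edgeR, 11 had an unadjusted p under 0.05, and DESeq2 called 1. The smallest adjusted p was 0.084, for Plaur with cabozantinib plus IL-27, whose interaction was 2.18 ± 0.59 on the log2 scale. There Plaur had 86.1 and 78.5 CPM with the combination against 26.6 and 58.0 CPM in media in IL27v libraries, and 29.1 and 20.6 CPM with the combination against 55.4 and 60.2 CPM in media in EV libraries. The combination libraries were the higher pair in IL27v and the lower pair in EV. The set changes in opposite ways in these pairs, C against B in IL27v and B against A in EV, so vector and set cannot be told apart here.

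The rest of the pathway was read from gene lists chosen with earlier results of these data known. Between IL27v and EV, none of 14 other metalloproteases tested was called in edgeR (3 at an unadjusted p under 0.05); 10 had a positive log2 fold change and their median was 0.66, beside 0.01 over all genes. Of 10 further inhibitors and activators of metalloproteases, 1 rose, Furin (0.88 ± 0.16), the convertase that opens pro-Mmp14, and 5 of the 10 were positive. Of 14 other genes of the plasminogen system, Serpinb2 (1.21 ± 0.31) rose and Hgf (-1.72 ± 0.39), a Met ligand built like plasminogen, fell. Hgf was low, with medians of 0.749 CPM in IL27v and 1.96 CPM in EV libraries. Plasminogen itself was at 0 CPM in all 23 libraries, so in these tissues its transcript was not detected. Of 14 ADAM and ADAMTS proteases, Adamts2 (1.99 ± 0.52), which trims procollagen, rose, and of 8 cathepsins and cystatins none was called in edgeR (3 at an unadjusted p under 0.05). Over all genes the share called was 2.95%.

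Genes of cytokines and AP-1 factors also rose in IL27v, and their part in the levels of Mmp3 and Plaur was not tested. Over all genes 2.28% were called higher in IL27v, and no gene was called with the set as a term. Of 8 cytokines in the list, 4 rose in IL27v, Il11 (2.25 ± 0.45), Csf2 (1.35 ± 0.29), Il6 (2.96 ± 0.65) and Il1b (1.65 ± 0.40), and the median of the 8 was 1.38. Il11 was low, with medians of 1.26 CPM in IL27v and 0.367 CPM in EV libraries. Of 13 AP-1 and ETS factors, 5 rose, among them Junb (2.51 ± 0.41), Jund (1.67 ± 0.30), Jun (1.01 ± 0.18) and Fosb (0.92 ± 0.23), with a median of 0.39. Junb also followed the sets, with 47.6 to 182 CPM in set C, 0.267 to 1.13 CPM in set B and 3.17 to 64.1 CPM in set A, and these ranges overlapped only between sets C and A. Of 15 matrix substrates, elastin (Eln, 4.09 ± 0.85) rose and osteopontin (Spp1, -1.12 ± 0.21) fell, and 1 of the 15 was positive. Eln was low, with medians of 2.77 CPM in IL27v and 0.377 CPM in EV libraries. With docetaxel against media, 4 of 13 AP-1 and ETS factors rose, Jund (4.46 ± 0.56), Junb (5.09 ± 0.78), Jun (1.91 ± 0.30) and Fosl1 (1.85 ± 0.36), as did Furin (1.20 ± 0.26) and the cathepsin inhibitor Cst3 (1.83 ± 0.44). No other metalloprotease or plasminogen gene of the lists was called there in edgeR, and 5 of 14 and 1 of 14 had an unadjusted p under 0.05.

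By the same measure of likeness, the genes closest to Mmp3 were Il6 (r of 0.926), Il1rl2, a receptor of the interleukin 1 family (0.906), and Cyp1b1 (0.901). Those closest to Mmp2 were Hsd11b1 (0.931), Prelp (0.924) and C2 (0.922). For Plau they were Npr3 (0.925), Thbd (0.912), the thrombin receptor thrombomodulin, and Trib1 (0.911), and for Plaur they were Gprc5a (0.903), Ier3 (0.893) and Brsk1 (0.855). Timp1 was closest to Fth1 (0.916), Mmp14 to Pmp22 (0.862) and Timp3 to Gtdc1 (0.835). Mmp9 and Mmp10 had no gene above 0.701 and 0.694. These coefficients share library depth and cell makeup and are descriptions over 22 libraries.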

How the data were processed

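RNA was sequenced as stranded poly(A) paired-end libraries from RNA with an integrity number of at least 8, per the labels' protocols. The submitters' processing notes name build GRCm38 and the tools cutadapt, HISAT2, StringTie and DESeq2, with neither versions nor the counting step. The deposited table gives estimated counts for each gene in 23 libraries, in whole numbers; 143 genes hold the same nonzero value in every library, so they are not plain read counts. Whether counting used strand is not stated, and antisense partners and close copies are uncertain.

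From these values, R 4.3.3 with edgeR 4.0.16 (TMM scaling, filterByExpr, quasi-likelihood test, BCV of 0.62, 11 residual degrees of freedom) fitted 12 group means over 24440 genes, with Benjamini-Hochberg adjustment and a threshold of 0.05. The fits were tested on simulated data. The vector effect is the mean of 6 within-condition differences, and an exposure against media is the mean over both vectors. Exposures share media libraries, so their values are not independent. SEs are the absolute log2 fold change over the square root of F. Alternatives were DESeq2 1.42.0, RLE factors, no filter, 1 CPM in 4 libraries, a replicate block, a GC offset, additive models with and without the set of libraries, only the libraries compared, and leaving out each library; set C alone and the comparison with and without cabozantinib were chosen after seeing the data. limma 3.58.1 was loaded with edgeR.

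Samples were grouped by title, since 1 library name recurs in the descriptions of samples kept with IL-27. The members, lists and sets were chosen with earlier results of these data known. All members are named; from each list up to 4 called genes with the smallest p are named. Likeness is Pearson's r of log2(CPM + 1) among genes with a mean of at least 5 CPM.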

Additional observations from a re-analysis of the deposited data

How the results depend on the processing

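The log2 fold changes of Mmp3 and Plaur between IL27v and EV kept their sign in all 23 fits that left out 1 library. They ran from 3.28 to 4.39 and from 0.87 to 1.09. Those fits leave vector and set confounded, and neither gene was called with the set as a term. RLE factors moved no member level by more than 7.07%. Main counts of members called were 2 for IL27v against EV, 1 for docetaxel against media and 0 for the others. Without the filter they were 4 for IL27v against EV, 2 for cabozantinib, 2 for docetaxel, 3 for anti-PD-L1, 1 for IL-27 and 3 for cabozantinib plus IL-27 (each against media), 3 for docetaxel against cabozantinib and 2 for with against without cabozantinib, in a table of 33123 genes of which 4.92%, 2.86%, 5.56%, 1.53%, 3.3%, 1.07%, 1.13% and 0.489% were called in the same order. DESeq2 gave 1 each for cabozantinib, IL-27, docetaxel against cabozantinib and with against without cabozantinib. The set term gave 0 for IL27v against EV and for docetaxel. For docetaxel the count was also 0 in the additive model, with only the libraries compared, and with the GC offset and replicate block together. Leaving out 1 library gave 2 to 4 for IL27v against EV, 0 to 1 for cabozantinib, docetaxel and cabozantinib plus IL-27, and 0 to 2 for IL-27 and for with against without cabozantinib.

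Over 100 tests within vectors 1 was called, against 17 without the filter, 2 at 1 CPM in 4 libraries, 7 by DESeq2, 0 with only the libraries compared and 0 to 5 with 1 library left out. Over 60 tests of the vector within conditions 0 were called, against 13 without the filter, 3 with only the libraries compared, 5 by DESeq2 and 0 to 1 with 1 library left out. Over the interactions 0 were called, against 13 without the filter, 1 by DESeq2 and 0 to 2 with 1 library left out. Of all genes in these 3 families, 2.38%, 1.87% and 2.36% were called without the filter. Mmp2 for anti-PD-L1 against media changed sign to 0.093 with the set term, and ranged from -1.63 to 0.43 with 1 library left out; Mmp2 for docetaxel against media in IL27v ranged from -2.95 to 1.21, the positive value without IL27v media 2. The cause of these changes was not tested. Leaving out 1 library keeps at most 1 library in its group, so member calls in those fits are not read as support. Genes called over the whole table were 722 for IL27v against EV and 437 for docetaxel, 2104 and 1795 by DESeq2, 569 and 289 with the replicate block and 0 and 0 with the set term. They were 394 to 1244 for IL27v against EV and 0 to 1251 for docetaxel with 1 library left out.

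The replicate numbers do not pair the libraries: of 55 group pairs 15 had a correlation of deviations over 0.1, from -0.695 to 0.561. With the replicate block, Mmp3 and Plaur for IL27v against EV had 3.90 and 0.99, Plaur for docetaxel 1.39 with an adjusted p of 0.043 in edgeR, and the block changed no count of members called. At least 36.3 counts stood for 1 CPM, but these are not plain read counts, and the part of depth was not tested. Limits are the 2 libraries per group, the confounding of vector with set, and replicate differences within groups.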
